A study of Mus musculus with 4 samples.

Results

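The genes described here are 45 genes of mitosis and the kinetochore, chosen by name from what they are known to do. Earlier results of these data were known when they were chosen, so the list is not independent of these arrays. For each, the array row that carried its symbol alone was used, and the brightest such row where there were several. Of the 45, 43 had a row of their own, and all 43 lay above the detection floor on every array, and they were tested among 17841 genes of the 22180 with a row of their own. The other two, Ccnb1 and Ncapg, had no such row.

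Expression was measured in primary osteoblasts, the bone-forming cells, grown from the calvaria (skull roof) of newborn mice. Progenitors were cultured for 21 days in osteogenic medium with ascorbate and glycerol phosphate, and the total RNA of each culture went to 1 Affymetrix Mouse Gene 2.0 ST array. The labels give 2 genotypes, Runx3f/f/Col1a1-cre and wild type, with biological replicates 1 and 2 of each; age beyond newborn, strain and the number of animals behind a culture were not given in the sources used here. In the first, a floxed Runx3 is to be deleted by a Cre under the promoter of Col1a1, a collagen gene of osteoblasts, so that other cells of the culture may keep Runx3. Runx3, a Runt-family transcription factor, read 7.94 and 8.06 on the arrays labelled Runx3f/f/Col1a1-cre and 7.45 and 7.87 on the wild-type arrays (replicates 1 and 2, log2 scale), so the deletion does not show in this row; which exons it spans was not given in the sources used here. The first group is therefore called mutant-labelled below, and each direction rests on that label.

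Mitosis is driven by the kinase Cdk1 bound to cyclin A or B. The duplicated chromosomes are compacted by condensin, attached through their kinetochores to spindle microtubules, held back by the spindle checkpoint until every pair is attached, and then released by the anaphase-promoting complex and separase. Most of these genes are transcribed only late in the cycle, through Foxm1, Mybl2 and the MuvB complex acting on their promoters, and their RNA is abundant in dividing cells. In calvarial cultures, progenitors divide first and most osteoblasts leave the cycle as they lay down matrix. On arrays of whole cultures, fewer cells in mitosis and less of this RNA per cell cannot be told apart.

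Mitotic genes were slightly lower in the mutant-labelled culture of both replicates. Among all 17841 genes tested, 19.5% were lower in both replicates and 3000 genes were higher in both. Of the 43 members, 37 were lower in both replicates and 0 were higher in both. In the remaining 6, the arrays of both genotypes gave the identical value (no tolerance) in 1 replicate, as 60.3% of all genes tested did in at least 1. Rescaling shifts such identical values: 41 members and 62.8% of all genes were lower in both after quantile normalization again, and 41 and 70.4% after median centring, where 4 of the 41 were identical as deposited. Among genes with unequal values in both replicates, 37 of 37 members and 49.1% of all genes were lower in both. The size was small: the median log2 difference (mutant-labelled minus wild type) was -0.29 over the members, a 1.22-fold lower level, and 0 over all genes. It was -0.31 within replicate 1 and -0.25 within replicate 2. At least a 1.2-fold lower value within both replicates was found for 18 members, against 3.76% of all genes, and at least 1.5-fold for 0 members, against 1.15%.

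With group as the only term, no single member passed the test across all genes. In that limma fit (two-sided, Benjamini-Hochberg over all genes tested, threshold 0.05), 0 members and 0% of all genes passed, and the smallest adjusted p of a member was 0.833. At an unadjusted limma p under 0.05 there were 5 members, all lower (Kif2c, Bub1, Anln, Nuf2 and Prc1), against 1.9% of all genes that were lower at this p. In 29 members both mutant-labelled arrays lay below both wild-type arrays, against 9.25% of all genes. Wild-type levels themselves differed between the replicates by -0.20 to 0.75 log2 units over the members (median 0.15, against 0.28 over all genes), and in 13 members this offset was larger than the mean difference between genotypes. The sign of the mean difference turned in 9 members when a single array was left out, each named below where it is described. The labels do not say that the replicates came from separate litters, so the p-values speak for these arrays only. They rest on the spread within each genotype, which includes the offset between replicates. The fit also draws the spread of each gene toward that of all genes tested.

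**Figure D1:**
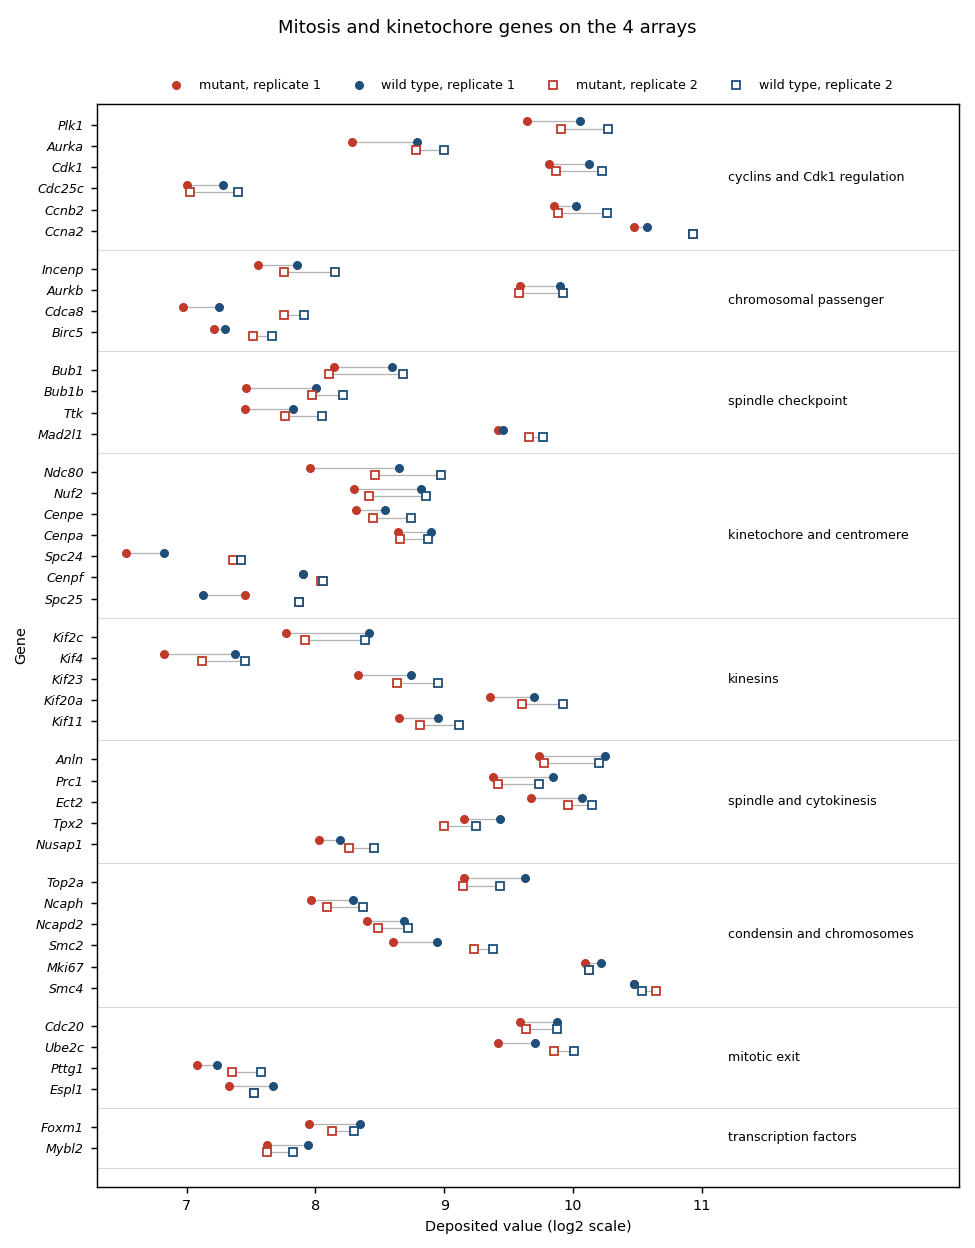
Deposited log2 values (x axis) of the 43 members (y axis), grouped by role; filled circles are replicate 1, open squares replicate 2, red mutant-labelled and blue wild type, and a line joins the arrays of a replicate. Red lies to the left of blue in both replicates for 37 members, while Ccna2, Cenpf, Espl1, Mki67, Smc4 and Spc25 have overlying points in 1 replicate.

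Markers of other cells of the culture differed on the same arrays, although 0 of them passed the adjusted limma threshold with group as the only term. With an intensity trend in the fit, 6 macrophage, 1 adipocyte and 1 chondrocyte marker passed it. All 15 macrophage markers were lower in both replicates, with a median of -1.77. Their summed level (log2 of the sum over the 15 rows) was 11.42 and 11.55 on the mutant-labelled arrays against 13.11 and 13.20 in wild type. Every macrophage marker stayed above the floor of 4.71, the dimmest value being 5.07. Chondrocyte markers (4 of 5 lower in both, median -0.95, summed 11.56 and 11.49 against 12.62 and 12.51) and adipocyte markers (4 of 4 tested, median -0.99, summed 10.42 and 10.29 against 10.98 and 10.80) were lower as well. Of the adipocyte markers, Cd36 read 4.09 and 4.49 on the mutant-labelled arrays, under the floor, against 6.44 and 6.35 in wild type. It was tested only through the wild-type arrays, and the adipocyte count and median include it. Within the replicates Lpl was at -1.46 and -1.59, Plin1 at -0.41 and -0.49 and Fabp4 at -0.25 and -0.05. Osteoclast markers went both ways, with Atp6v0d2 at -1.54 and -0.94, Acp5 at 0.27 and 0.33 and Oscar at 0.20 and 0.27 within the replicates. Their median was -0.01 over 6 tested genes (summed 11.61 and 11.68 against 11.60 and 11.62). Endothelial markers had a median of 0.14 over 6 (summed 9.15 and 9.20 against 8.04 and 8.54). Of these, 2 were higher and 0 lower in both replicates, and 3 held identical values in at least 1. Cdh5 alone read 8.63 and 8.41 against 6.93 and 7.13, at 1.70 and 1.27. Emcn, also higher in both, read 3.76 and 4.42 in wild type, under the floor, and was tested only through the mutant-labelled arrays (5.15 and 5.26). The 7 osteoblast markers with a row of their own were split, with 3 lower and 1 higher in both replicates and a median of -0.03 (summed 14.70 and 14.84 against 14.98 and 15.13). The other 3, Col1a1 among them, held identical values in replicate 2, which does not establish that they were alike. Col1a1 read 13.45 and 13.57 against 13.47 and 13.57, while the mature osteoblast genes were lower in both replicates: Ibsp was at -1.56 and -1.53, Dmp1 at -1.61 and -1.31 and Bglap at -0.57 and -0.50. Sp7, an osteoblast transcription factor, was at 0.29 and 0.08. The tissue tag of the labels reads Myoblast. Myoblast markers lay between 5.45 and 8.24 and centred at a difference of 0. Of these 5 markers, 4 held identical values in at least 1 replicate, so their median does not establish that they were alike. Des was at 0.51 and 0.25. The part of these cells in the mitotic values was not tested.

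RefSeq promoter windows of the members hold shared motifs. Shown are the windows of the 4 members with the most negative mean difference and of the 2 with the smallest among those the promoter table holds, each running from 250 bases before to 50 bases after the RefSeq start (GRCm38.p6), read in the direction of the gene. Capitals mark matches to the CHR (cell cycle genes homology region, TTTGAA or TTCGAA), to the NF-Y motif CCAAT, to the E2F motif (TTTCCCGC, TTTGGCGC, TTTCGCGC or TTTGCCGC) or to the Runx core TGTGGT, each searched on both strands.
Ndc80, chr17:71526808-71527107, minus strand: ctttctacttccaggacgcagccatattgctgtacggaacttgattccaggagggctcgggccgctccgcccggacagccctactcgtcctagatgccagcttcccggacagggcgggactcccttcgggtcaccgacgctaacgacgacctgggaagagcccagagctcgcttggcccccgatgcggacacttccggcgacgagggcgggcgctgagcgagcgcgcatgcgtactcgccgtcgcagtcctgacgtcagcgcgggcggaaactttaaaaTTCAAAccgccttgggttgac
Kif2c, chr4:117178723-117179022, minus strand: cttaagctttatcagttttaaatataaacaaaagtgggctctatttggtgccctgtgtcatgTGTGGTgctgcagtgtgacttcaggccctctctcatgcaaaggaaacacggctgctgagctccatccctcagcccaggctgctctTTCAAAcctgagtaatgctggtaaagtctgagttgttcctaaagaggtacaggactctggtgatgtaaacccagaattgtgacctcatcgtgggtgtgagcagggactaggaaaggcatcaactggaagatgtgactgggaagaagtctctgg
Bub1, chr2:127831810-127832109, minus strand: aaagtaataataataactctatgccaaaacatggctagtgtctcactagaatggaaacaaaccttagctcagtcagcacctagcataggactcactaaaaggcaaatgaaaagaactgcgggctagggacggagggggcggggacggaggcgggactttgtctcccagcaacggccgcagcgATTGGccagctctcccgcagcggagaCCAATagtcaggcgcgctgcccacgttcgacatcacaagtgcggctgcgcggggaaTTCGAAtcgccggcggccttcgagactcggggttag
Nuf2, chr1:169531415-169531714, minus strand: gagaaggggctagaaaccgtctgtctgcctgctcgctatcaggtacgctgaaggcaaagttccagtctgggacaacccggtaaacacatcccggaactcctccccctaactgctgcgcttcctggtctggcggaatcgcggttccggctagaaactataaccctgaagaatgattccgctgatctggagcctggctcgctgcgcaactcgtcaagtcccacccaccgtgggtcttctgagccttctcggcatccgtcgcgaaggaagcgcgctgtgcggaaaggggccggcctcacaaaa
Cenpf, chr1:189688037-189688336, minus strand: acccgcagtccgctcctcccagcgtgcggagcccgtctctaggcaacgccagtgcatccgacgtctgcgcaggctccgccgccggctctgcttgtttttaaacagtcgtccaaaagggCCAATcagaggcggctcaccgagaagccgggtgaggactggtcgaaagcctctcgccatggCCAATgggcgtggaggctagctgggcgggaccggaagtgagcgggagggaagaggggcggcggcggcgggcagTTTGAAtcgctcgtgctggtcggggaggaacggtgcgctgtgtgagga
Mki67, chr7:135716330-135716629, minus strand: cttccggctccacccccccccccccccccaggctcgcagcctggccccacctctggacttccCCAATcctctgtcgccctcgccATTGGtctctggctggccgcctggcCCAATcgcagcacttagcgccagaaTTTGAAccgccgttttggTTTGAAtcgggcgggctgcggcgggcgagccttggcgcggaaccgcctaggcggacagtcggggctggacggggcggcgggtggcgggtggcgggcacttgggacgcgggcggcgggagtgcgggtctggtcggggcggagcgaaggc

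Of these 6 windows, 5 hold a CHR match: those of Ndc80, Kif2c and Bub1, and those of Cenpf and Mki67. The values of Cenpf and Mki67 hardly differed, but each held identical values in 1 replicate, which does not establish that they were alike. Counted with the annotated start as 0, the match begins at 29 in Ndc80, 14 in Bub1, 2 in Cenpf and -103 in Kif2c, and in Mki67 at -116 and -98. The Nuf2 window holds none of the motifs. Bub1, Cenpf and Mki67 also hold NF-Y matches, and Kif2c holds a Runx core at -188. The start that the table gives for Kif2c lies 3852 bases inside the outer end of the gene in the RefSeq gene table, so its window may not be the promoter in use. Of the members with a window, Pttg1 (1482 bases) was the other with a start over 1000 bases from that end. The promoter table held 36 of the 45 members. A CHR match was in 27 of these (75%), against 17% of the 13801 tested genes with a window and 23.5% of 34 DNA replication genes. It began within 50 bases of the start in 24 members (66.7%), against 4.53% of tested genes. NF-Y matches were in 26 members (72.2%, against 41.5%), E2F matches in 3 (8.33%, against 3.86%, and 38.2% of the DNA replication genes) and Runx cores in 4 (11.1%, against 15.8%). No motif contains another, and matches of different motifs were counted whether or not they shared bases. A match is a string of letters and not a bound site. Of the measured members with a window, 26 with a CHR match had a median log2 difference of -0.32 and 8 without it -0.23, a contrast that was not tested.

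**Figure D2:**
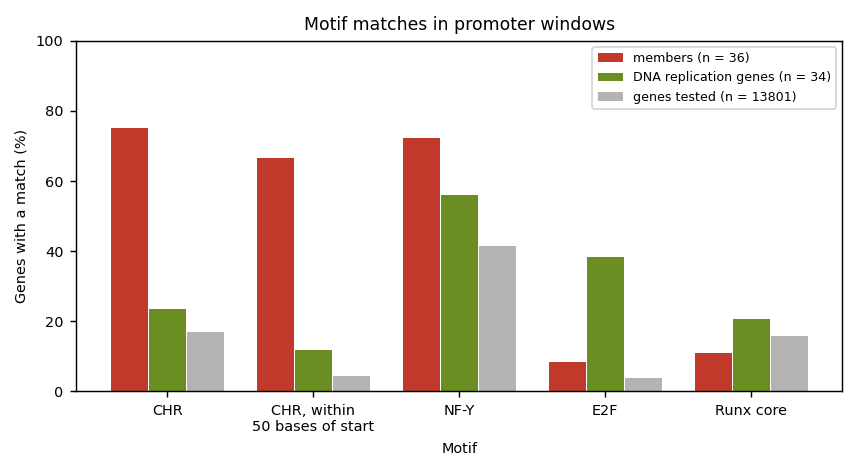
Percent of genes (y axis) whose 300-base RefSeq promoter window holds at least 1 match to each motif (x axis), for the mitotic members, the DNA replication genes and all tested genes. The CHR bar of the members stands at 75% against 17% of tested genes, while their Runx core bar stands at 11.1% against 15.8%.

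Cyclins and the kinases that start mitosis were lower in both replicates, apart from Ccna2. Cdk1, the kinase that drives entry into mitosis, read 9.81 and 9.87 on the mutant-labelled arrays (replicates 1 and 2) and 10.12 and 10.23 in wild type. Both mutant-labelled values lay below both wild-type values, and the differences were -0.31 and -0.36. Plk1, a kinase of mitotic entry and spindle assembly, read 9.64 and 9.91 against 10.05 and 10.27, a mean log2 difference of -0.39 (SE 0.17, limma adjusted p = 1). Cdc25c, the phosphatase that activates Cdk1, was at -0.29 within replicate 1 and -0.37 within replicate 2, and Ccnb2, which encodes a B-type cyclin, at -0.17 and -0.38. Aurka, the centrosomal Aurora kinase, differed more in replicate 1 (-0.51) than in replicate 2 (-0.22). In these 5 genes the 2 groups did not overlap. Ccna2, cyclin A, read 10.48 against 10.57 in replicate 1 and 10.93 on both arrays of replicate 2; its mean difference of -0.05 became 0.18 without mutant-labelled replicate 1 and 0.13 without wild-type replicate 2. The median of the 6 measured genes of this class was -0.33.

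The chromosomal passenger complex, which corrects faulty attachments and guides cytokinesis, was lower as a whole, with a median of -0.27 over 4 genes. Aurkb, its kinase, read 9.59 and 9.58 on the mutant-labelled arrays and 9.90 and 9.92 in wild type. The arrays of each genotype were nearly alike and the genotypes apart, with a mean difference of -0.32 (SE 0.11, limma adjusted p = 1). Incenp, the scaffold, was at -0.31 and -0.39 within the replicates, and its groups did not overlap either. Cdca8, which encodes borealin, was at -0.28 and -0.16, and Birc5, survivin, at -0.09 and -0.15. Both overlapped between groups, since replicate 2 read higher than replicate 1 in both genotypes; without mutant-labelled replicate 1 their mean differences were 0.17 and 0.04, and without wild-type replicate 2 they were 0.11 and 0.07.

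Spindle checkpoint genes were lower in both replicates in 4 of 4 cases, with a median of -0.36. Bub1, the checkpoint kinase, read 8.14 and 8.10 on the mutant-labelled arrays and 8.59 and 8.68 on the wild-type arrays. The groups were far apart for their spread (8.12 ± 0.03 against 8.63 ± 0.06, SD, n = 2 arrays per group), 1.42-fold lower (log2 -0.51, SE 0.12, limma adjusted p = 0.848). Bub1b, which encodes BubR1 and restrains Cdc20, read 7.46 and 7.97 against 8.01 and 8.22. Its difference in replicate 1 (-0.54) was over that in replicate 2 (-0.25), and its highest mutant-labelled value lay just under its lowest wild-type value. Ttk, the kinase Mps1, was at -0.37 and -0.29. Mad2l1, which encodes the checkpoint protein Mad2, was the member of this class with the smallest difference, at -0.04 and -0.11; its mean difference of -0.07 became 0.05 without mutant-labelled replicate 1 and 0.08 without wild-type replicate 2.

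The kinetochore and centromere genes ran from -0.60 to 0.16. The Ndc80 complex, the rod that binds microtubules, was split. Ndc80 read 7.96 and 8.46 on the mutant-labelled arrays and 8.65 and 8.97 in wild type, 1.52-fold lower, which was the most negative mean difference among the members (log2 -0.60, SE 0.25, limma adjusted p = 1). Nuf2, its direct partner, read 8.30 and 8.42 against 8.82 and 8.86 and was 1.40-fold lower (log2 -0.48, SE 0.12, limma adjusted p = 0.936). In both genes the groups did not overlap. The other pair of the complex differed less. Spc24 read 6.53 and 7.36 against 6.82 and 7.43, a difference of -0.30 in replicate 1 and -0.06 in replicate 2, and Spc25 read 7.45 against 7.13 in replicate 1 and 7.87 on both arrays of replicate 2. Spc25 was one of 2 members whose mean difference was above 0 (0.16, SE 0.34), beside Smc4. The mean difference of Spc24 became 0.24 without mutant-labelled replicate 1 and 0.12 without wild-type replicate 2, and that of Spc25 became -0.05 without mutant-labelled replicate 2 and -0.21 without wild-type replicate 1. Whether Spc24 and Spc25 differ from Ndc80 and Nuf2 was not tested.

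Centromere proteins followed the same range. Cenpa, the histone H3 variant that marks the centromere, read 8.64 and 8.65 on the mutant-labelled arrays against 8.90 and 8.87 in wild type. These 4 values formed 2 separate pairs, with a mean difference of -0.24 (SE 0.115). Cenpe, a kinesin that moves chromosomes to the spindle equator, was at -0.23 and -0.29 within the replicates. Cenpf, a large protein of the outer kinetochore, read 7.90 on both arrays of replicate 1 and 8.04 against 8.06 in replicate 2, a mean difference of -0.01 that became 0.06 without mutant-labelled replicate 1 and 0.07 without wild-type replicate 2.

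Kinesins, the motors of the spindle, were all lower: 5 of 5 were at least 1.2-fold lower within both replicates, none overlapped between groups, and the median was -0.37. Kif2c, which depolymerises microtubules at the centromere, read 7.77 and 7.92 on the mutant-labelled arrays and 8.42 and 8.38 in wild type. The groups (7.84 ± 0.10 against 8.40 ± 0.02, SD, n = 2) differed 1.47-fold (log2 -0.56, SE 0.13, limma adjusted p = 0.833), the smallest adjusted p among the members. Kif4, a chromosome-bound kinesin, was at -0.55 and -0.33 within the replicates. Kif23, which bundles microtubules at the cleavage site, was at -0.41 and -0.32, and Kif20a, another kinesin of late mitosis, at -0.34 and -0.32. Kif11, which pushes the spindle poles apart, differed by -0.31 in replicate 1 and -0.30 in replicate 2, the closest match between replicates in this class.

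Spindle and cytokinesis factors were lower in both replicates in 5 of 5 genes, with a median of -0.29. Anln, anillin of the contractile ring, read 9.74 and 9.77 on the mutant-labelled arrays and 10.24 and 10.20 in wild type. The replicates of a genotype lay close together, and the groups (9.75 ± 0.03 against 10.22 ± 0.03, SD, n = 2) differed 1.38-fold (log2 -0.47, SE 0.12, limma adjusted p = 0.895). Prc1, which crosslinks microtubules of the central spindle, read 9.38 and 9.42 against 9.84 and 9.73 (log2 -0.39, SE 0.12, limma adjusted p = 1). Ect2, an exchange factor that acts at the cleavage plane, was at -0.40 and -0.19. Tpx2, which activates Aurora A on the spindle, was at -0.28 and -0.24, and Nusap1, a microtubule-bundling protein, at -0.16 and -0.20. Nusap1 was the only gene of this class whose groups overlapped. A dimmer row that Nusap1 shares with another gene read 5.32 against 5.58 in replicate 1 and 6.02 on both arrays of replicate 2.

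Condensin and chromosome genes had a median of -0.25 over 6 measured genes. The non-SMC subunits Ncaph and Ncapd2 were at -0.32 and -0.28 and at -0.29 and -0.24 within the replicates, and neither overlapped between groups. The 2 ATPase subunits of the condensin ring gave different values. Smc2 was at -0.34 and -0.15, with a mean difference of -0.24 that became 0.07 without mutant-labelled replicate 1. Smc4 read 10.47 on both arrays of replicate 1 and 10.64 against 10.53 in replicate 2, a mean difference of 0.05 that became -0.03 without mutant-labelled replicate 2. Ncapg was present only in a row shared with Lcorl, which the choice of rows leaves out; that row read 7.45 against 7.70 in replicate 1 and 7.45 against 7.88 in replicate 2. Top2a, the topoisomerase that untangles sister chromatids, read 9.16 and 9.15 on the mutant-labelled arrays and 9.63 and 9.43 in wild type, without overlap (log2 -0.38, SE 0.14, limma adjusted p = 1). Of 2 further rows shared by Top2a and Taf1d, 1 held equal values in both replicates and 1 was at 0.11 and 0.10. Mki67, which encodes the proliferation antigen Ki-67, read 10.09 against 10.22 in replicate 1 and 10.12 on both arrays of replicate 2. No label or file header states how identical values arose, and they do not establish that these genes were alike.

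Genes of mitotic exit were lower in both replicates in 3 of 4 cases, with a median of -0.21, the smallest among the classes, and 0 reached 1.2-fold in both. Cdc20, which activates the anaphase-promoting complex, read 9.59 and 9.63 on the mutant-labelled arrays and 9.87 and 9.88 in wild type. Each genotype was tight and the groups were apart (log2 -0.26, SE 0.12, limma adjusted p = 1). Ube2c, the ubiquitin-conjugating enzyme of that complex, was at -0.29 and -0.16, and Pttg1, securin, the inhibitor of separase, at -0.16 and -0.23. Espl1, separase, read 7.33 against 7.67 in replicate 1 and 7.52 on both arrays of replicate 2. The pair of transcription factors was lower too. Foxm1 read 7.95 and 8.13 on the mutant-labelled arrays and 8.35 and 8.30 in wild type, and Mybl2, B-Myb, read 7.62 on both mutant-labelled arrays and 7.94 and 7.83 in wild type. Neither gene overlapped between groups, and their mean differences were -0.29 (SE 0.13) and -0.26 (SE 0.12). The dimmer second row of Mybl2, at 5.39 and 5.72, held equal values within each replicate.

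**Figure D3:**
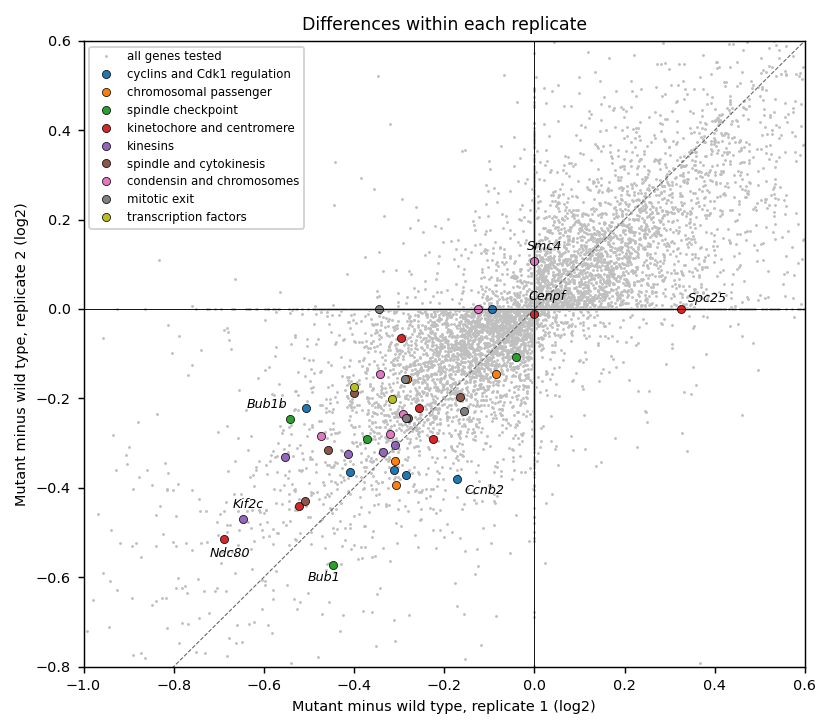
Log2 difference (mutant-labelled minus wild type) within replicate 1 (x axis) and within replicate 2 (y axis), with members coloured by role and all genes tested in grey; genes beyond the axes are not drawn. The 37 members lower in both replicates lie at the lower left, with Ndc80 at -0.69 and -0.51, Kif2c at -0.65 and -0.47 and Bub1 at -0.45 and -0.57 farthest out.

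The replicates ordered the members alike to a degree. Across the 43 members, differences within replicate 1 and replicate 2 had a Pearson r of 0.69 and a Spearman coefficient of 0.61; members measured on the same arrays are not independent, and the equal values enter this figure. Of the 37 members lower in both, 26 differed more in replicate 1. The wild-type level of a member had no clear relation to its difference (Pearson r -0.03, Spearman coefficient -0.08 across the 43 members).

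Other genes of the same processes, from a list of 122 of which 114 were tested, had a median of -0.09. They included 59 that were lower in both replicates and 7 higher in both, against 3471 and 3000 of all 17841 genes tested. How they differ from the members was not tested. Of the 114, 16 were at least 1.2-fold lower in both replicates, against 3.76% of all genes, and 0 passed the adjusted threshold. Ska3, of the complex that stabilises kinetochore attachments, was at -0.46 and -0.65, Cdca5, sororin of the cohesin complex, at -0.57 and -0.50, and the kinase gene Melk at -0.59 and -0.34. Kinases and cyclins had a median of -0.18 (11 of 16 lower in both), spindle and cytokinesis genes -0.20 (22 of 31), and kinetochore and centromere genes -0.06 (16 of 36). Identical values in at least 1 replicate were held by 48 of the 114, against 60.3% of all genes tested. Among the 36 kinetochore and centromere genes, 20 held such values and 0 were higher in both, so their median does not establish that they were alike. Cohesin and condensin II genes were at 0 as a median, with 5 of 15 lower and 4 higher in both and 6 equal in at least 1 replicate. The cohesin loader Nipbl was at 0.23 and 0.21. Genes of the anaphase-promoting complex and of proteins that act with it were at -0.03, with 5 of 16 lower and 1 higher in both and 10 equal in at least 1 replicate. Cohesin, its loader and this complex also work outside mitosis.

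DNA replication genes, which are transcribed earlier in the cycle, were lower as well, with medians of -0.28 within replicate 1 and -0.28 within replicate 2. Of 41, 32 were lower in both replicates and 0 higher in both, against 3471 and 3000 of all 17841 genes tested. Mcm6, of the replicative helicase, read 8.18 and 8.33 on the mutant-labelled arrays and 8.86 and 8.96 in wild type. Chaf1b, a chromatin assembly factor, was at -0.69 and -0.54. The difference between the lists was not tested.

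**Figure D4:**
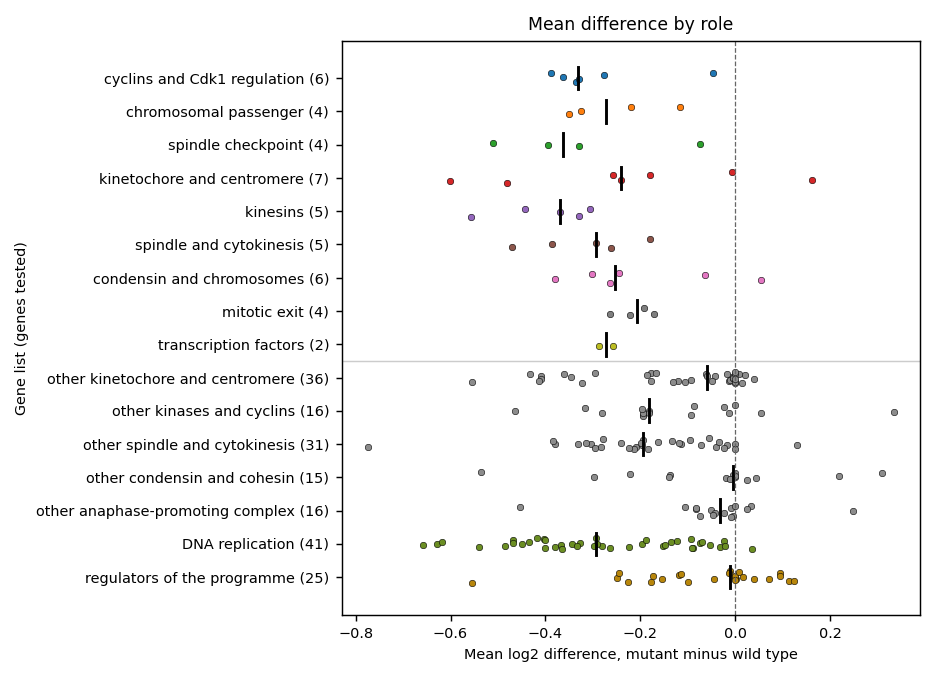
Mean log2 difference (x axis, mutant-labelled minus wild type) of each tested gene, by role (y axis, number of genes in brackets); a black bar is the median, the 9 upper lists hold the members, and points are spread vertically for sight. Class medians of the members run from -0.37 (kinesins) to -0.21 (mitotic exit), while other condensin and cohesin genes centre at 0.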

How the data were processed

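The deposited table of 41345 rows gives, per array, values taken as log2, since the submitters' processing notes name RMA and Partek (with neither versions nor roles) and values lie between 2.26 and 14.1. No source used here states the log base or the centring. Rows were named through the platform annotation: 23521 had 1 symbol, 1814 several and 16010 none listed. The brightest row of a symbol was used. Genes entered the test where at least 2 of 4 arrays exceeded 4.71, a floor that 90 percent of 1405 rows for odorant and vomeronasal receptors stay under on average. Differences across all genes tested were fitted with limma 3.58.1 in R 4.3.3 (lmFit, eBayes). The size of the fitted difference was checked on simulated falls larger than that of any member. That check does not show whether falls of the members' size would be called. Array medians were 5.50 (mutant-labelled) and 5.45 (wild type) in replicate 1, and 6.08 and 6.05 in replicate 2. Within replicates 1 and 2, 15613 and 18665 rows held equal values. Same-numbered arrays deviated together (r = 0.92 across genes), but the labels do not tie them to a litter or day, so the replicate number was a block only as an alternative. Alternatives covered normalization, row choice, floor, variance model, array weights, the block and each array left out. Promoters are RefSeq windows (GRCm38.p6).

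All 45 members may be named; of each other list, up to 4 genes of smallest p, of which 1 is not reported here. Col1a1 is named outside this rule, as the gene whose promoter drives the Cre. The lists hold the members by role, other mitosis genes, DNA replication genes, regulators, and markers of osteoblasts, macrophages, osteoclasts, endothelial cells, adipocytes, chondrocytes and myoblasts. Members and lists were chosen with earlier results of these data known.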

Additional observations from a re-analysis of the deposited data

How the results depend on the processing

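The members' median of -0.29 stayed below 0 in the alternatives run. With 1 array left out the median ran from -0.3747 to -0.2188, while that of all genes ran from -0.16 to 0.15. Genes past the adjusted threshold numbered 0 in the fit without the block, 0 with the replicate block and 49 with the intensity trend. With quantile normalization again plus the replicate block they numbered 399 (187 lower and 212 higher, with 17302 genes tested). In that setting 3 members passed, all lower (Plk1, Nuf2 and Anln, limma adjusted p = 0.0491, 0.0459 and 0.0478). So did 10 macrophage, 3 osteoblast and 2 chondrocyte markers that were lower and 1 endothelial marker that was higher. At unadjusted limma p under 0.05, 21 members were lower with the replicate block against 5 without it, as were 1202 against 339 of all 17841 genes tested. A 1.2-fold minimum in place of 1.5-fold gave 18 members. Mean differences turned sign with an array left out for 9 members, 5 of them among the 37 lower in both replicates: Ccna2 ran from -0.28 to 0.18, Birc5 from -0.30 to 0.0664, Cdca8 from -0.61 to 0.17, Mad2l1 from -0.23 to 0.0823, Spc24 from -0.60 to 0.24, Cenpf from -0.0818 to 0.0696, Smc2 from -0.56 to 0.0717, Spc25 from -0.21 to 0.54 and Smc4 from -0.0313 to 0.14. With an array gone, the replicates' own offset enters each difference. Counts over both replicates could not be formed with an array left out. The number of arrays limits the precision.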

Other observations

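Regulators of the mitotic programme other than Foxm1 and Mybl2 centred near 0. Those 2 genes are counted among the members and were lower in both replicates. Over 25 tested genes (E2F factors, pocket proteins, MuvB subunits and CDK inhibitors) the median log2 difference was -0.01. Of these, 7 were lower and 5 higher in both replicates, against 3471 and 3000 of all 17841 genes tested. Identical values in at least 1 replicate were held by 12 of the 25, against 60.3% of all genes tested. The median near 0 therefore does not establish that these genes were alike. E2f8, an atypical E2F that is itself transcribed in S phase, read 7.67 and 7.56 on the mutant-labelled arrays and 8.28 and 8.07 in wild type, a mean difference of -0.56 (SE 0.14, limma adjusted p = 0.936), and was the 1 gene of this list at least 1.2-fold lower in both. Rbl1, the pocket protein p107, was at -0.24 and -0.25 within the replicates, and Tfdp1, the partner of E2F factors, at -0.32 and -0.17. Cdkn2a read 8.55 against 8.90 in replicate 1 and 8.64 on both arrays of replicate 2.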
